A study of Mus musculus with 6 samples.

Results

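Genes of major histocompatibility complex (MHC) class I and antigen presentation were examined in whole mouse embryos at embryonic day 8.5. The genes were the 8 symbols H2-K1, H2-D1, B2m, Tap1, Tap2, Tapbp, H2-Ke6 and H2-T23, out of 18193 named genes on the array. They were chosen by the low signal of H2-K1 in embryos heterozygous for Tcof1, so the genotype differences of these genes are given as a description, with no test. Every probe set annotated with exactly 1 gene symbol was used. A probe set combines several short array oligonucleotides into 1 signal. This gave 23 probe sets for 7 of the 8 genes. No probe set carried H2-T23 alone, and 5 probe sets that named a listed gene together with another gene were not used.

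There were 3 wild-type embryos and 3 Tcof1+/- littermates, each on an Affymetrix Mouse Genome 430 2.0 array of its own. Tcof1 encodes treacle, which acts in the nucleolus in making ribosomal RNA, and loss of a single human copy causes Treacher Collins syndrome. No treatment is named for either genotype. The sources used here do not give the make of the Tcof1 allele, the number of litters, or the inbred strain or cross.

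Class I molecules display peptides from inside the cell to cytotoxic T cells and natural killer cells. A heavy chain, encoded in the mouse by H2-K1, H2-D1 and their relatives, pairs with the light chain beta-2 microglobulin, encoded by B2m. Peptides are cut by the proteasome, pumped into the endoplasmic reticulum by the Tap1 and Tap2 transporter, and loaded onto the heavy chain with the help of tapasin, encoded by Tapbp. Early embryos are known for low levels of class I molecules, which interferon can raise in many cell types. H2-Ke6 lies among these genes but encodes a hydroxysteroid dehydrogenase of mitochondrial fatty acid synthesis, and H2-T23 encodes the non-classical heavy chain Qa-1.

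The promoters of the heavy chain genes and of the light chain gene are shown because their signals behaved differently in these embryos. Each window holds the 250 bases before a transcription start in the RefSeq table for GRCm38.p6, in which 7 of the 8 genes were matched (all but Tap2). B2m lies on chromosome 2 and the other 7 genes on chromosome 17. Capitals mark matches on either strand to any of 4 motifs: enhancer A of class I genes, bound by NF-kappaB proteins; the kappaB site of the immunoglobulin kappa light chain gene; GAANNGAAA, the class I form of the interferon response site; and the interferon-stimulated response element. In H2-K1 and H2-D1 the first capitals are enhancer A and the next the interferon site. In B2m the first are the interferon-stimulated response element and the next the kappaB site. No matches overlap in these windows. The windows lie at chr17:34000348-34000597 on the minus strand for the first listed start of H2-K1, at chr17:35262844-35263093 on the plus strand for H2-D1, and at chr2:122147437-122147686 on the plus strand for B2m.
H2-K1: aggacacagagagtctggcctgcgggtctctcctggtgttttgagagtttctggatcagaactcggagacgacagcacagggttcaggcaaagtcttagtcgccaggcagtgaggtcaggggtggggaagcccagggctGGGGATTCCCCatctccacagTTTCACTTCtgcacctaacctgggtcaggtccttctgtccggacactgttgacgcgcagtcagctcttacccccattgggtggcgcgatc
H2-D1: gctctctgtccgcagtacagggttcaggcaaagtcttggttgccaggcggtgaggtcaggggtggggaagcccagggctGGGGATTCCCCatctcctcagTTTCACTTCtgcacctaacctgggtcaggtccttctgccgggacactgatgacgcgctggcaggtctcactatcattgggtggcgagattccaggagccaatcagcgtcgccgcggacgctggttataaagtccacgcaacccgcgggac
B2m: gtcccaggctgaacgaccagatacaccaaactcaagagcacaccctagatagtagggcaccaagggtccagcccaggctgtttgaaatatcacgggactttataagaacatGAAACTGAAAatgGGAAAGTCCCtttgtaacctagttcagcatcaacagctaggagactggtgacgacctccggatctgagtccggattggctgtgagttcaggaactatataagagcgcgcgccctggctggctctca

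The windows of the heavy chain genes were alike, with 166 of 190 aligned bases identical (87.4%). Both held enhancer A followed by the class I interferon response site. In H2-K1 enhancer A began 111 bases and the interferon site 90 bases before the start, and in H2-D1 they began 171 and 150 bases before it. Enhancer A was found in 10 of 32851 promoter windows of the same length (0.0304%), which belonged to 9 genes, 3 of them class I heavy chain genes (H2-K1, H2-D1 and H2-Q6). The interferon site GAANNGAAA was found in 6.31% of the windows. B2m had no match to these but had the kappaB site, present in 0.140% of the windows, and the interferon-stimulated response element, present in 2.98%. H2-T23 held the latter element, and no match to any of the 4 motifs was found in the windows of Tap1, Tapbp and H2-Ke6. A match is a description of the letters in this window.

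Signals were deposited as linear intensities in arbitrary units, scaled so that all arrays had the same trimmed mean. Array medians lay between 21.0 and 25.6. As a guide to background, the highest signal of 27 bacterial control probe sets without added target was 8.55 to 13.5 per array. Tcof1 itself, on its brightest probe set, was at 382, 393 and 387 in the wild types and at 222, 179 and 231 in the heterozygotes, so the labels and this transcript go together. All 17 markers of an embryo of this stage with a probe set, such as Otx2, Pax6, Tbx6 and Nkx2-5, were above the controls on all 6 arrays. In all, 22 of 27022 tested probe sets (0.0814%) differed between genotypes in limma at a Benjamini-Hochberg adjusted p under 0.05. Of these, 21 were higher (0.0777%) and 1 was lower (0.0037%) in heterozygotes. The 1 that was lower was the brightest probe set of Tcof1 itself (log2 -0.88, adjusted p = 0.0347 in limma). With so few passing, 0 in a list of genes is near the share over all probe sets. Nothing is read from such zeros below.

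The classical heavy chain genes gave lower mean signals in the heterozygotes on 8 of their 9 tested probe sets. On the 7 that were above the controls on all arrays, heterozygotes were at 51.5% to 88.3% of the wild-type mean. The light chain gene B2m and the brighter probe set of the loading gene Tapbp gave 92.1% to 96.4% of the wild-type mean. Tap1 and Tap2 were near background. The Tap1 probe set that was tested was higher in the heterozygotes, but it passed the signal filter only through them. Because whole embryos were measured, fewer cells expressing a gene and less RNA per cell cannot be told apart.

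On the brightest probe set of H2-K1, 1425336_x_at, the wild-type embryos 1, 2 and 3 gave signals of 318, 283 and 297. The heterozygous embryos 1, 2 and 3 gave 177, 158 and 188. The genotypes did not overlap, and the spread within each was small, with the highest embryo at 1.12 times the lowest among wild types and 1.19 times among heterozygotes. The means were 299 ± 17.6 and 174 ± 15.3 (SD, n = 3 per genotype), so heterozygotes were at 58.1% of wild type. This is the value that led to the choice of these genes. Differences are given on the scale of log2(signal + 1.87), which understates changes of dim genes, with the standard error (SE) of the limma model. On this scale the difference was -0.78 (SE 0.12).

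A second H2-K1 probe set, 1451931_x_at, gave 219, 160 and 217 in wild types and 131, 99.5 and 115 in heterozygotes. It too separated the genotypes, with a log2 difference of -0.77 (SE 0.16). The third, 1427746_x_at, gave 36.1, 29.3 and 52.5 in wild types against 18.2, 17.9 and 24.5 in heterozygotes. Its log2 difference was -0.87 (SE 0.30), again without overlap. The dimmest H2-K1 probe set, 1450534_x_at, behaved otherwise: it gave 11.6, 20.4 and 15.9 in wild types and 18.3, 16.0 and 18.1 in heterozygotes. It lay just over the level of the controls, and its difference was 0.14 (SE 0.37), with overlapping groups. The 3 brighter probe sets of this gene thus separated the genotypes and the dimmest did not. The heterozygotes of 1427746_x_at, at 17.9 to 24.5, were close to those of the dimmest, at 16.0 to 18.3.

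H2-D1, the other classical heavy chain gene measured here, had 9 probe sets, of which 5 were bright enough to test. Its brightest, 1425545_x_at, gave 258, 237 and 226 in wild types and 187, 145 and 137 in heterozygotes. All heterozygotes lay below all wild types, with means of 241 ± 16.3 and 156 ± 26.8 (SD, n = 3 per genotype) and a log2 difference of -0.63 (SE 0.14). The probe set 1451683_x_at also separated the genotypes, at 43.6, 33.2 and 29.8 against 18.4, 25.8 and 15.7, a log2 difference of -0.78 (SE 0.30).

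The H2-D1 probe set 1451784_x_at gave 177, 120 and 195 in wild types and 132, 107 and 85.9 in heterozygotes, where wild-type embryo 2 fell below heterozygous embryo 1. Its log2 difference was -0.58 (SE 0.21). The probe set 1426324_at differed by -0.18 (SE 0.32), with signals of 20.7 to 30.4 in wild types and 15.9 to 28.0 in heterozygotes. It is the one tested heavy chain probe set without the _x_at ending. The last tested one, 1452544_x_at, ran from 4.79 to 39.5 among wild types and from 1.40 to 33.1 among heterozygotes, so its log2 difference of -0.68 (SE 0.91) was smaller than its error. The 4 untested H2-D1 probe sets had signals between 0.612 and 18.8 and overlapped between the genotypes. Of their differences 3 were positive and 1 was negative.

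Across the 9 tested heavy chain probe sets, 8 differences were negative and 1 was positive, with a median of -0.68, where the median over all tested probe sets was 0.0049. On 5 of the 9 all heterozygotes lay below all wild types, and 6.19% of all tested probe sets did so in that direction. None of the 14 tested probe sets of the listed genes was among the 0.0814% of all probe sets that passed in limma, and 6 of them, all heavy chain, were among the 1673 of 27022 (6.19%) with an unadjusted p under 0.05. Since the choice of genes used this contrast, nothing is read from these counts. The genotype difference of -0.78 on the brightest H2-K1 probe set was -0.84 on the first scan day (2 arrays per genotype) and -0.66 on the second (1 per genotype). For the 7 heavy chain probe sets above the controls on all arrays, the difference was negative on both days, from -0.84 to -0.10 on the first and from -1.16 to -0.35 on the second.

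**Figure D1:**
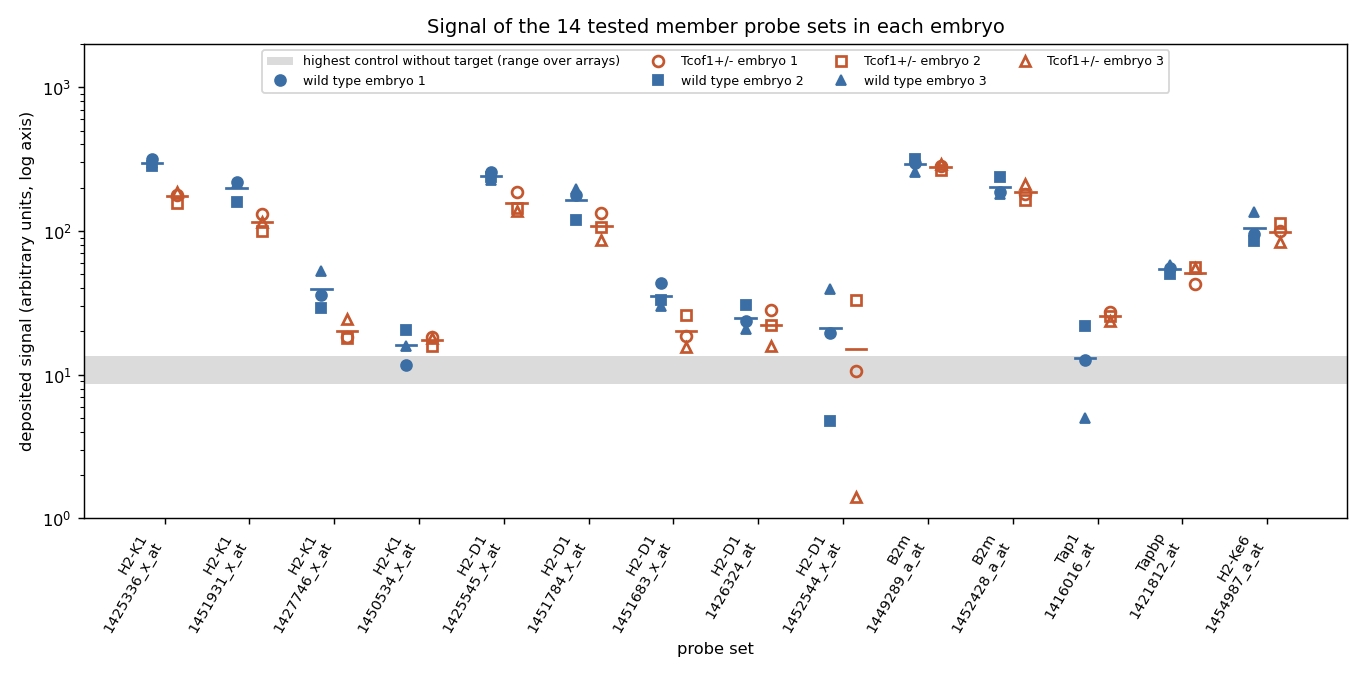
Deposited signal (arbitrary units, log axis) of the 14 tested probe sets in each embryo; filled blue symbols are wild types, open orange symbols Tcof1+/- embryos, short lines the means of 3, and the grey band the range over arrays of the highest control without target (8.55 to 13.5). The brightest H2-K1 probe set lies at 283 to 318 in wild types and 158 to 188 in heterozygotes, whereas both B2m probe sets overlap.

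The probe sets of the heavy chains are not independent of each other. Of the 13 heavy chain probe sets, 11 carry the ending _x_at, by which Affymetrix marks sets whose probes can also match other transcripts, as 5.42% of probe sets on this array do. All 5 tested heavy chain probe sets on which the genotypes did not overlap carry the _x_at ending. The H2-D1 sets without it, 1426324_at and 1451934_at, overlapped, at log2 -0.18 and 0.70, the latter dim and untested. The heavy chain genes are close paralogues, so signals named H2-K1 and H2-D1 may share targets. Which transcript the lower signals came from cannot be told apart here. Heavy chain genes also differ in sequence between inbred strains. Probe letters were not used here, and whether alleles under the probes differed between embryos was not tested.

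B2m, which encodes the light chain of class I molecules, was well above the controls and showed no such separation. On 1449289_a_at the wild types gave 299, 317 and 256 and the heterozygotes 282, 267 and 291, so the heterozygotes lay within the wild-type range. The log2 difference was -0.05 (SE 0.11). The second probe set, 1452428_a_at, gave 188, 237 and 180 in wild types and 181, 165 and 212 in heterozygotes, a difference of -0.11 (SE 0.15). On the first scan day these differences were -0.17 and -0.29, and on the second they were 0.19 and 0.24.

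Tap1, which forms the peptide pump together with Tap2, had 4 probe sets, all dim. On 1416016_at the wild types gave 12.6, 21.8 and 4.99 and the heterozygotes 27.5, 25.6 and 23.6. All heterozygotes lay above all wild types, as they did for 5.98% of all tested probe sets, and 4 of the 6 signals were above the controls. Its log2 difference was 1.04 (SE 0.47). The wild-type mean of 13.1 was under the signal needed for testing (14.5), and the heterozygote mean was 25.5. This probe set was thus tested only through the group where it was high, and nothing is read from its direction. The other 3 Tap1 probe sets were at 0.763 to 19.4 and were not tested; on 1448177_at, which was below the controls on every array, the heterozygotes lay below the wild types. Tap2, the partner of Tap1, had 1 probe set, at 3.82, 7.04 and 8.03 in wild types and 7.38, 9.59 and 22.2 in heterozygotes, which was too dim to test.

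Tapbp, which encodes the loading factor tapasin, gave 54.9, 50.6 and 58.4 in wild types and 42.7, 55.7 and 54.9 in heterozygotes on 1421812_at. The groups overlapped, with a log2 difference of -0.10 (SE 0.19). Its other probe set, 1450378_at, was below the controls on every array, at 1.57 to 2.88 in wild types and 5.56 to 7.78 in heterozygotes. H2-Ke6 gave 94.9, 84.6 and 135 in wild types and 99.8, 114 and 83.4 in heterozygotes. This gene of fatty acid synthesis showed a log2 difference of -0.07 (SE 0.20), although it lies close to H2-K1 on the chromosome.

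**Figure D2:**
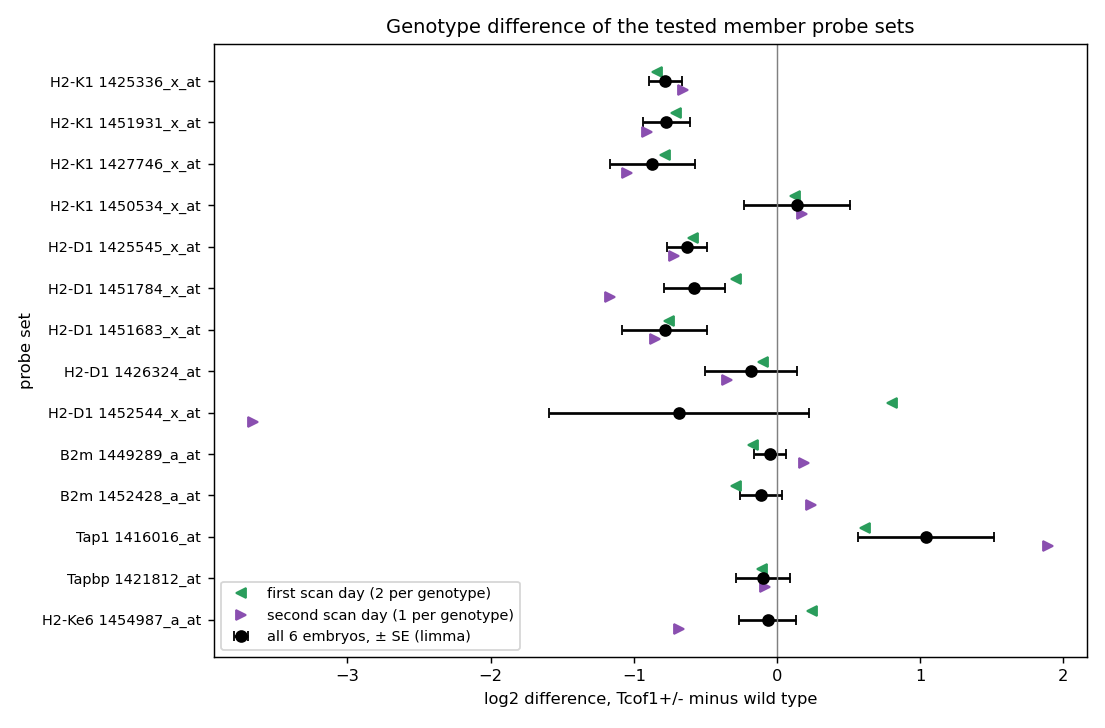
Log2 difference (Tcof1+/- minus wild type) of the 14 tested probe sets; black points with bars are all 6 embryos ± SE, green triangles the first scan day with 2 embryos per genotype and purple triangles the second with 1. The first 3 H2-K1 probe sets lie between -0.87 and -0.77, and B2m, Tapbp and H2-Ke6 lie near 0.

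Genes that neighbour the heavy chains were compared next, since 7 of the 8 listed genes lie in a single stretch of chromosome 17. RefSeq places 183 other genes between the outermost of them, of which 103 had a probe set and 78 were tested. In limma 0 rose and 0 fell over all probe sets, with 1 higher and 5 lower at an unadjusted p under 0.05, which 6.19% of all tested probe sets reached. Of the 78, 50 were negative and 28 positive, where 49.0% of all tested probe sets were negative. The median log2 difference was -0.05 and the range -1.36 to 1.13. For 7 genes all heterozygotes lay below all wild types and for 2 above, against 6.19% and 5.98% of all tested probe sets. The nearest tested genes on either side of H2-K1 were AA388235, at -0.13, and Ring1, a Polycomb gene, at -0.05. On either side of H2-D1 were Ddx39b, an RNA helicase gene, at 0.14, and Pou5f1, the pluripotency factor gene Oct4, at 0.15. The smallest p-values in the stretch belonged to the retinoid X receptor gene Rxrb (423 ± 37.5 against 331 ± 41.8, log2 -0.36, adjusted p = 0.724), Ddx39b (adjusted p = 0.768) and the collagen gene Col11a2 (24.4 ± 7.06 against 9.49 ± 7.48, adjusted p = 0.773; SD, n = 3 per genotype, limma). Col11a2, the low end of the range at -1.36, had a heterozygote mean under the signal needed for testing (14.5). It was tested only through the wild types, and nothing is read from its direction.

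**Figure D3:**
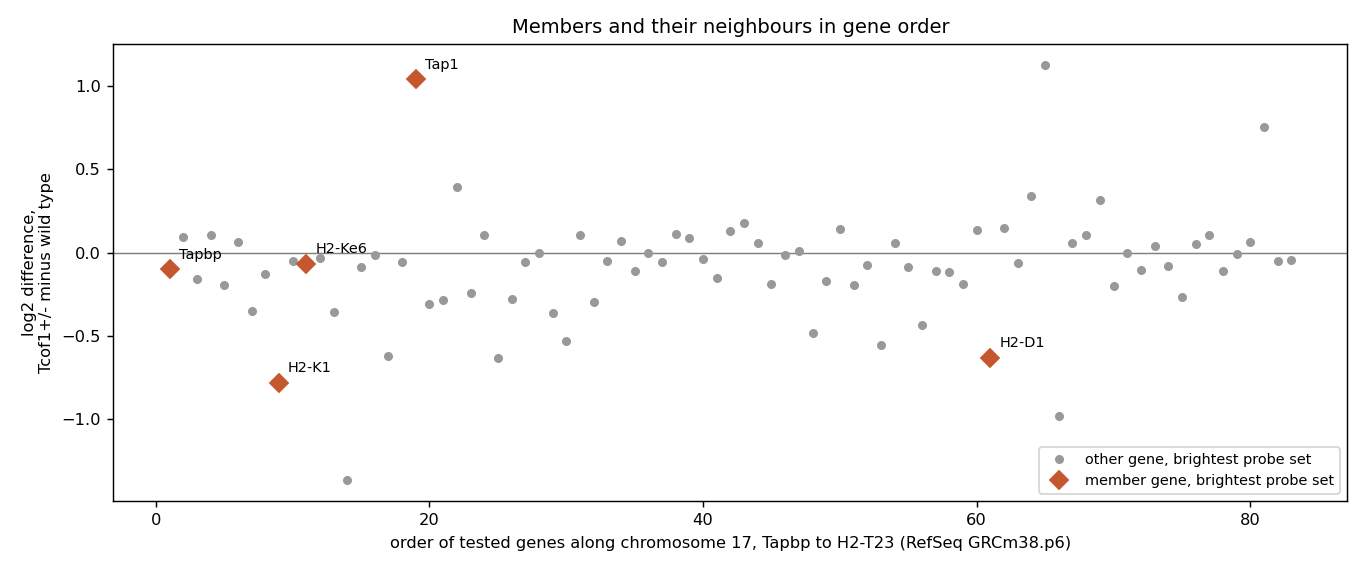
Log2 difference (Tcof1+/- minus wild type, brightest probe set per gene) of tested genes in their order along chromosome 17 from Tapbp toward H2-T23; diamonds are the listed genes and grey dots the 78 others. H2-K1 at -0.78 and H2-D1 at -0.63 lie apart from the nearest tested neighbour on each side, which lie between -0.13 and 0.15. The 78 others run from -1.36 to 1.13.

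Other class I-like heavy chain genes were mostly dim: of 28 in a list, 15 had a probe set and 8 were tested. In limma 0 rose and 0 fell, with 0 at an unadjusted p under 0.05, against 0.0814% and 6.19% of all tested probe sets. The differences were negative for 6 and positive for 2, with a median of -0.16. Hfe, whose product regulates iron uptake, had means of 20.2 ± 4.76 for wild types and 11.3 ± 4.71 for heterozygotes (SD, n = 3 per genotype; log2 -0.78, adjusted p = 0.825 in limma). Its heterozygote mean was under the signal needed for testing (14.5), so Hfe was tested only through the wild types and nothing is read from its direction. H2-Bl ran from 28.8 to 40.2 among wild types and from 24.4 to 31.6 among heterozygotes (log2 -0.29, adjusted p = 0.875).

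In limma 0 genes of the steps before and after peptide transport rose or fell, where 0.0814% of all tested probe sets passed. An unadjusted p under 0.05 was reached by 6.19% of all tested probe sets. Of 15 tested genes of peptide loading and trimming, 12 were positive and 3 negative, with a median of 0.02 and 1 each way at an unadjusted p under 0.05. Thop1, a peptidase that degrades peptides in the cytosol, was at 595 ± 68.8 and 460 ± 52.0 (log2 -0.37, adjusted p = 0.706). Pdia3, the disulphide isomerase of the loading complex, was at 1842 ± 249 and 2215 ± 224 (log2 0.27, adjusted p = 0.779). Of the 6 tested genes of the proteasome list, 3 were positive and 3 negative, with 1 higher at an unadjusted p under 0.05. The constitutive catalytic subunit gene Psmb7 was at 2588 ± 129 and 2900 ± 92.3 (log2 0.16, adjusted p = 0.768). Psmb10, a subunit of the immunoproteasome, was at 86.4 ± 24.6 and 78.9 ± 10.9 (log2 -0.10, adjusted p = 0.944; SD, n = 3 per genotype). The other immunoproteasome subunit genes with a probe set, Psmb8 and Psmb9, were at most 11.4 in any embryo and were not tested.

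Of the listed regulators of class I transcription, 17 of the 22 genes with a probe set were above the controls on all arrays. Nlrc5, Irf2, Relb and Rel were dim and not tested. Nlrc5 was at 7.57 to 18.7, above the controls on 3 arrays. Of 18 tested, in limma 0 rose and 0 fell, and 1 was lower at an unadjusted p under 0.05. Over all tested probe sets the shares were 0.0814% and 6.19%. The median of the 18 was -0.02. Irf3, an interferon regulatory factor gene, had signals of 381 ± 39.2 and 307 ± 35.2 on its brightest probe set (SD, n = 3 per genotype; log2 -0.31, adjusted p = 0.773). Its other tested probe sets differed by 0.07 and -1.36. The latter was at 22.8 to 25.1 in wild types and 5.97 to 10.7 in heterozygotes. It was thus tested only through the wild types, and nothing is read from its direction. Nfyc, a subunit of the CCAAT-binding factor, differed by -0.12 (adjusted p = 0.844). Of 12 tested genes of interferon receptors and signalling, 6 were positive and 6 negative, with a median of 0.0009, and again in limma 0 rose and 0 fell, with 1 higher at an unadjusted p under 0.05. The phosphatase gene Ptpn2, which restrains this pathway, differed by 0.21 (adjusted p = 0.773) and the kinase gene Jak1 by -0.11 (adjusted p = 0.891).

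Interferon-induced genes showed no common direction. Of 23 tested, 9 were positive and 14 negative, with a median of -0.09. In limma 0 rose and 0 fell, with 2 lower at an unadjusted p under 0.05, against 0.0814% and 6.19% of all tested probe sets. These were Ifitm2, a membrane protein gene of antiviral defence, at 874 ± 147 and 679 ± 44.3 (log2 -0.35, adjusted p = 0.721), and Lgals3bp, a galectin-binding protein gene, at 21.9 ± 5.22 and 9.69 ± 4.81 (log2 -1.11, adjusted p = 0.787; SD, n = 3 per genotype). The heterozygote mean of Lgals3bp was under the signal needed for testing (14.5). Lgals3bp was thus tested only through the wild types, and nothing is read from its direction. MHC class II genes present peptides from outside the cell. Of 7 tested in a list of these and their helpers, 2 were positive and 5 negative, and in limma 0 rose and 0 fell, with 1 lower at an unadjusted p under 0.05. That gene was H2-DMa, a class II loading factor, at 35.3 ± 3.45 and 22.6 ± 4.55 (log2 -0.62, adjusted p = 0.787). H2-Ab1, a class II beta chain gene, was at 40.2 ± 2.47 and 32.9 ± 9.91 (log2 -0.31, adjusted p = 0.868; SD, n = 3 per genotype).

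**Figure D4:**
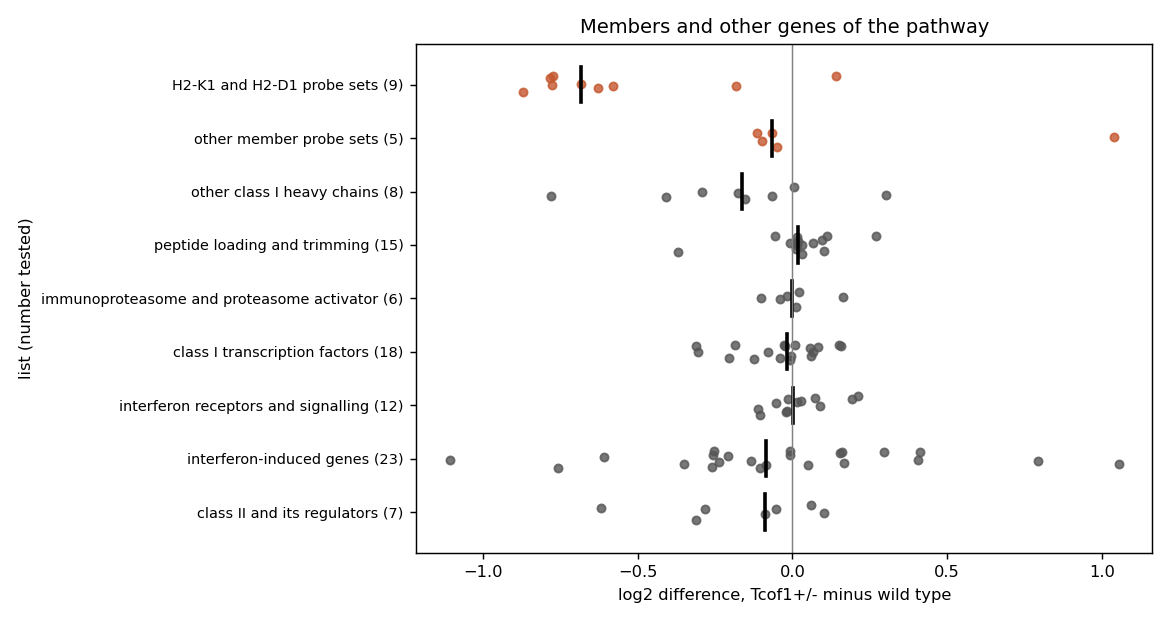
Log2 difference (Tcof1+/- minus wild type) of tested probe sets of H2-K1 and H2-D1, of the other listed genes, and of 7 lists of further pathway genes (1 dot per gene, brightest probe set); vertical bars are medians and the number tested is in brackets. The heavy chain median lies at -0.68, and the medians of the 7 lists lie between -0.16 and 0.02.

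White blood cells carry much class I, and most of their markers were near or below the level of the controls. Of 26 marker genes 25 had a probe set, 5 were above the controls on all arrays and 9 on none. Ptprc, the pan-leukocyte gene CD45, was at 0.700 to 11.5 and C1qa, of macrophages, at 0.691 to 2.81, both below the controls on every array. Those above the controls on all arrays were Laptm5, Csf1r, Adgre1, Spi1 and Coro1a. Laptm5, a lysosomal membrane protein gene of blood cells, ran from 118 to 212 among wild types and from 83.7 to 146 among heterozygotes (log2 -0.56, adjusted p = 0.799 in limma). Of 7 tested markers, 4 were positive and 3 negative, and in limma 0 rose and 0 fell, with Laptm5 alone at an unadjusted p under 0.05. The summed signal of the list overlapped between genotypes, at 329 to 508 in wild types and 340 to 451 in heterozygotes. Without wild-type embryo 3 the wild types were at 461 to 508 and no longer overlapped with the heterozygotes. Endothelial markers, of which 13 of 15 were above the controls on all arrays, summed to 2023 to 2544 and 2262 to 2371. The summed trophoblast markers were at 5173 to 5719 and 4931 to 6701, and those of maternal decidua at 1563 to 1863 and 1799 to 1889. Most of the trophoblast sum came from the keratin genes Krt8 (means of 3150 and 3317) and Krt18 (1763 and 1779). Krt8 was also in the list for the embryo at this stage. Prl4a1 of trophoblast was at 0.813 to 3.70, and Prl8a2 and Prl3c1 of decidua at 2.25 to 18.9 and 0.246 to 2.44. These sums are thus no measure of those tissues. Primitive erythroid markers were at 6056 to 14128 in wild types and 461 to 11574 in heterozygotes, and yolk sac endoderm markers lay at 2041 to 10998 and 926 to 17825. With all 6 embryos, the summed ranges of these lists overlapped between the genotypes. Without wild-type embryo 2 the wild types were at 2023 to 2145 for endothelium and 1563 to 1671 for decidua, below all heterozygotes. Without heterozygous embryo 1 the other heterozygotes were at 4931 to 5040 for trophoblast, below all wild types. Of the 14 tested yolk sac markers, 9 were negative and 5 positive with all embryos. Without wild-type embryo 1 all 14 were negative (median -1.02). Without heterozygous embryo 2 all 14 were positive (median 1.41), so the direction of this list hung on single embryos.

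Heterozygous embryo 1 stood apart in its erythroid markers, with the embryonic globin gene Hbb-bh1 at 146, where the other heterozygotes had 2565 and 4475 and the wild types 3046 to 6187. All 10 tested erythroid markers were negative, with a median log2 difference of -1.32, and in limma 0 rose and 0 fell, with 2 lower at an unadjusted p under 0.05. Without heterozygous embryo 1, 9 were negative, the median was -0.39 and the summed signal of the heterozygotes was 7643 to 11574. Without heterozygous embryo 3 the median was -2.02. Of the 17 tested markers of the embryo at this stage, 11 were negative, with a median of -0.23. In limma 0 rose and 0 fell, with 7 lower and 1 higher at an unadjusted p under 0.05, against 6.19% of all tested probe sets. For 5 of the 17 all heterozygotes lay below all wild types and for 1 above, against 6.19% and 5.98% of all tested probe sets. Otx2 and Pax6 were among the 5, at log2 differences of -0.53 and -0.58. Without heterozygous embryo 1 the median of this list was -0.08, without heterozygous embryo 2 it was -0.15, and 4 to 8 of the 17 had an unadjusted p under 0.05 when any 1 embryo was left out. The heavy chain difference was as large without heterozygous embryo 1, at -0.79 for the brightest H2-K1 probe set, -0.76 for that of H2-D1 and a median of -0.76.

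Technical measures that moved with genotype stand beside the heavy chain result. The log2 difference between the 3 prime and 5 prime Gapdh control probe sets, a measure of RNA integrity and amplification, was 0.84 to 1.04 in wild types and 0.68 to 0.81 in heterozygotes, and its part in the result was not tested. The highest signal of the controls without target was 11.4 to 13.5 in wild types and 8.55 to 11.3 in heterozygotes, without overlap. Its part in the result was not tested either. No fluidics module held both genotypes, so module and genotype cannot be told apart.

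The genes whose pattern over the 6 embryos was most like the brightest H2-K1 probe set were found by Pearson correlation of log2 signals among 23016 tested probe sets of other named genes. They were Isg20l2 (0.997), Tcof1 (0.994 on a probe set other than its brightest), Grm4 (0.991), Irf3 (0.991 on its dimmest tested probe set) and Bclaf1 (0.990). In all, 255 probe sets exceeded 0.9. The H2-K1 probe set was chosen for its gap between genotypes, so genes most like it share that gap by selection, and the values describe these 6 arrays. Among the listed genes, the correlation with this probe set was 0.95, 0.88 and -0.37 for the other H2-K1 probe sets. It was 0.90 for the brightest of H2-D1 and 0.16 to 0.78 for its other tested ones. For B2m it was 0.28 and 0.37, and for the tested Tap1 probe set -0.72. After each genotype's mean was taken out, the correlation was 0.70, 0.45 and -0.33 for the same H2-K1 probe sets. For H2-D1 it was then 0.16 on the brightest and -0.47 to 0.11 on the other tested ones. B2m was at 0.22 and 0.21, and Tap1 at -0.21.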

How the data were processed

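RNA (100 ng per embryo) was amplified and biotin-labelled in 2 cycles and 20 µg of cRNA was hybridised per array, per the labels' protocols. Each array has 1 deposited intensity, on a linear scale, for every probe set. GCOS is named in the submitters' processing notes, and the sources used here give neither its version nor its algorithm. The file held 45101 probe sets, and 64 controls were left out. Names came from the platform annotation (34945 probe sets with 1 symbol, 932 with several, 9160 with none). Values were taken as log2(signal + 1.87), where 1.87 is the 10th percentile. Probe sets in the lowest 40% by mean signal (under 14.5) were dropped, and 27022 were tested with limma 3.58.1 (eBayes with intensity trend, two-sided) in R 4.3.3, with Benjamini-Hochberg adjustment over all of them at 0.05. The fit was tested on simulated data. The number of arrays limits the precision, and no label says whether extraction was in batches. Scan day and fluidics module came from instrument records, with replicates 1 and 2 on the first day and 3 on the second. Pathway and marker lists were compared on the brightest probe set per gene. Genes named were every listed probe set, the 2 smallest p-values per pathway list, the 3 smallest of the chromosome 17 stretch, and the 5 most correlated genes. Neighbours, Psmb8, Psmb9, the untested regulators and markers were named as examples. The genes and lists were chosen with earlier results of these data known. Alternatives covered the pseudocount, normalization, filter, variance prior, array weights, replicate number, scan day and each array left out; leaving out arrays for the marker lists was added after seeing the data. Figures were drawn with matplotlib 3.10.9.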

Additional observations from a re-analysis of the deposited data

How the results depend on the processing

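Of the 8 heavy chain probe sets that were lower, 6 kept their direction in 16 of 16 alternatives and the other two, 1426324_at and 1452544_x_at, in 15, reaching 0.02 and 0.21. The differences were -0.83 to -0.71 for the brightest of H2-K1 and -0.76 to -0.54 for that of H2-D1. The heavy chain median ranged from -0.82 to -0.54. Both B2m probe sets and Tapbp (1421812_at) changed sign in 1 alternative each and H2-Ke6 in 2, within a range of -0.21 to 0.13 over these alternatives. Tap1 (1416016_at) stayed positive, at 0.56 to 1.46. The number of listed probe sets that passed in limma became 1 with the 60% filter, which tested 18015 probe sets: the brightest of H2-K1, whose low signal chose these genes, so nothing is read from it. Over all probe sets, 21 passed higher and 1, that of Tcof1, lower. The lower count was 2 with quantile normalization and with the 60% filter, and 0 with scan day as a block. Without the intensity trend 0 passed higher and 0 lower in limma (1544 at an unadjusted p under 0.05). With the replicate block 10 passed higher and 0 lower; replicates of the same number did not deviate together (correlations of -0.11 to -0.02), so the numbers were not taken as pairs. Leaving out 1 array gave 8 to 18 higher and 0 to 2 lower, with 8 higher when wild type 1 was left out, 11 for wild type 2, 9 for wild type 3 and 11 for heterozygote 2. Wherever 0 passed lower, Tcof1 itself did not pass, which limits what a 0 for other genes can show. The causes were not tested. In the pathway lists and the chromosome 17 stretch, 0 genes passed in limma in every alternative run, as in the reported fit. No background correction could be varied, since probe-level values were not used here.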
